A study of Homo sapiens with 18 samples.

Results

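Anterior neural ectoderm (aNE) is the sheet of early brain-forming cells that is made here in culture from human pluripotent stem cells (hPSC). The 2 aNE libraries of day 2 were compared with the 2 hPSC libraries of day 0, which are 4 of the 18 RNA libraries of the series. All cells were of H1, an established wild-type human embryonic stem cell line, so every value rests on 1 line. The hPSC group was kept in mTeSR Plus. The aNE group spent 24 hours in a definitive ectoderm medium with A8301 (1 µM), an inhibitor of the receptors for TGF-beta, activin and NODAL, trametinib (250 nM), which blocks the kinase MEK above ERK, C59 (1 µM), which stops cells from secreting WNT proteins, and LDN193189 (100 nM), an inhibitor of BMP receptors. The cells were then replated at 37500 cells per cm2 and spent another 24 hours with A8301, LDN193189 and C59 at those doses and thiazovivin (1 µM), an inhibitor of the kinase ROCK, but with no trametinib. A posterior neural ectoderm group (pNE, 2 libraries of day 2) passed through the same day-1 medium and the same replating and serves below for comparison. In its day-2 medium C59 was replaced by XAV939 (1 µM), which lowers WNT signalling inside the cell, and TTNPB (50 nM), an agonist of retinoic acid receptors, and the growth factor FGF2 (20 ng/mL) were added. Day, medium and replating all changed between hPSC and aNE, so their parts in any difference cannot be told apart.

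The unit is TPM, a share of all transcripts, which is scaled for gene length and sums to the same total in each library. Of 37550 rows in the table, 14841 had at least 1 TPM in at least 2 of the 4 libraries and were compared. Between 14175 and 14602 genes per library reached 1 TPM, and since TPM holds no read totals the sequencing depth is unknown. Replicates correlated at r = 0.985 (hPSC) and 0.987 (aNE) across genes, which are not independent points. Mitochondrial transcripts took 0.960% and 1.23% of the 2 hPSC libraries and 3.19% and 3.28% of the 2 aNE libraries.

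Cells of the early embryo become neural ectoderm when NODAL, BMP and WNT signals are held off, and the first neural tissue formed has anterior, forebrain-like character. Pluripotent cells are held by the transcription factors POU5F1, SOX2 and NANOG, of which SOX2 stays on in neural cells. Later WNT, FGF and retinoic acid signals give part of the neural plate hindbrain and spinal cord character.

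The labels were first set against defining genes. The summed level of the pluripotency markers POU5F1, NANOG, DPPA4, TDGF1 and ZFP42 was 4209 and 4221 TPM in hPSC and 392 and 398 TPM in aNE. The anterior neural markers OTX2, SIX3, LHX5, RAX and HESX1 summed to 37.7 and 43.7 TPM in hPSC and to 781 and 815 TPM in aNE. POU5F1 alone was at 2899.8 and 2877.7 TPM in hPSC. No value overlapped between the groups in either sum, as for 77.0% of all tested genes, and the direction followed the labels. The markers belong to lists chosen with earlier results of these data known, so these sums do not test the labels. The bulk values do not tell fewer cells of a type from less RNA per cell, here or in any result below.

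A gene was called changed when its difference on the log2(TPM + 1) scale was at least 1 in either direction and its adjusted p was under 0.05 (limma, Benjamini-Hochberg). By this rule 2301 genes were called between aNE and hPSC, 15.5% of those tested, with 1243 higher in aNE (8.38%) and 1058 lower (7.13%). The median difference over all tested genes was 0.06. The groups did not overlap for 77.0% of all tested genes, so absence of overlap says little by itself. Higher calls were 54.0% of all calls, but 47.7% with median-ratio scaling and 47.0% with quantile normalization, so which direction prevailed depended on the scaling. Calls by adjusted p alone numbered 7104, and a test against the fold threshold itself (limma treat) called 797. Of the 177 called genes named below or in the closing section, 51 were not called by that stricter test, all with changes of at most 2.10 in either direction. Fold changes below are on the log2(TPM + 1) scale, with SE, and understate the change of genes at low levels.

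**Figure D1:**
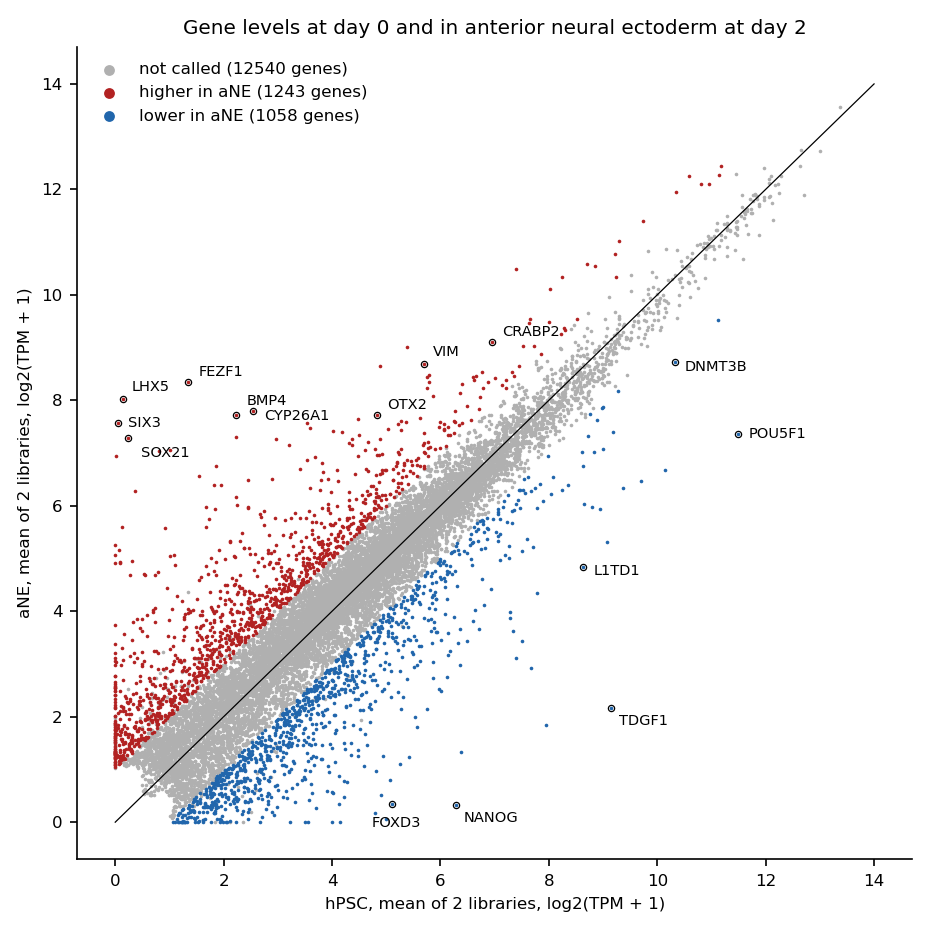
Mean level of each of the 14841 tested genes over the 2 hPSC libraries (x axis) and the 2 aNE libraries (y axis), both as log2(TPM + 1), with the 1243 genes called higher in aNE in red, the 1058 called lower in blue, and the line of equal levels. Anterior factors such as LHX5, SIX3 and FEZF1 lie at the upper left, and NANOG, FOXD3 and TDGF1 at the lower right.

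Within the list of 20 pluripotency genes, NANOG, a homeodomain factor that holds the pluripotent state, had the largest fall. It was at 77.4 and 76.2 TPM in hPSC and at 0.259 and 0.247 TPM in aNE, a change of -5.96 ± 0.20 (limma, adjusted p = 8.97e-11). The 2 hPSC libraries were far above both aNE libraries. NANOG has close processed copies in the genome, and how the authors' counting split reads among them is not given in the sources used here. The promoter of NANOG is shown because it holds the composite site that SOX2 and POU5F1 (OCT4) are known to bind together. The 250 bases before the gene's start follow, from RefSeq (GRCh38.p14, chr12:7789152-7789401, plus strand), with the composite motif in capitals. NRARP, a target and inhibitor of Notch signalling, is shown beside it, because it was the only other tested gene with this motif in its promoter (chr9:137302272-137302521, minus strand). It was found after values were seen.
NANOG: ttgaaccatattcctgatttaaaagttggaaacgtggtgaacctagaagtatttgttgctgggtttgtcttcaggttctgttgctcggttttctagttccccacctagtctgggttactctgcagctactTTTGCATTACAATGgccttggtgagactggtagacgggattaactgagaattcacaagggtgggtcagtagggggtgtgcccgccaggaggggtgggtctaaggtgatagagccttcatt
NRARP: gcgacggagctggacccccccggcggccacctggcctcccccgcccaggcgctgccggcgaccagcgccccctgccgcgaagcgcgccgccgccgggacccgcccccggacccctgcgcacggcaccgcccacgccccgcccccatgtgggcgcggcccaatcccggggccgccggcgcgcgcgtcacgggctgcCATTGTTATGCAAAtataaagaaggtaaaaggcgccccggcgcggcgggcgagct
The motif searched was CATTGT, any 1 base and ATGCAAA in a row, on both strands, in the window from 250 bases before to 50 after each start. It occurred in 3 of 27305 RefSeq promoters and in 2 of the 11030 promoters of tested genes, which are the promoters above. In NANOG it ran from -120 to -107 on the reverse strand, as TTTGCATTACAATG, and in NRARP from -55 to -42 as CATTGTTATGCAAA. NRARP was at 34.1 and 32.8 TPM in hPSC and 13.9 and 13.4 TPM in aNE, and was called lower (-1.23 ± 0.20, limma adjusted p = 0.000189). The shorter octamer core ATGCAAA, which lies within the composite motif, occurred in 4.51% of all promoters and 3.06% of those of tested genes. It was in 45 of 750 promoters of genes called lower in aNE (6.0%) and in 23 of 845 of those called higher (2.72%). These are counts of letters in a window, with no test, and they do not show binding.

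Of 20 pluripotency genes listed, 19 were tested, 10 were called lower (52.6%, against 7.13% of all tested genes) and none higher (against 8.38%). At an unadjusted p under 0.05, 5 were higher, 4 of them at an adjusted p under 0.05 but below the fold threshold (limma). Since 4 of the 19 reached 1 TPM only in hPSC, they could be called only as lower, and 3 of them, NANOG, DPPA2 and FOXD3, were. Their median change was -1.22, against 0.06 over all tested genes. POU5F1, the central pluripotency factor, was at 2899.8 and 2877.7 TPM in hPSC and at 162 and 164 TPM in aNE (-4.14 ± 0.22, limma adjusted p = 8.21e-09). It was thus far lower in aNE but still above 100 TPM, and its pseudogenes make the exact level uncertain. L1TD1, an RNA-binding protein of pluripotent cells, went from 387 and 404 TPM to 29.0 and 26.3 TPM (-3.79 ± 0.10). FOXD3, a forkhead factor of pluripotent and neural crest cells, went from 35.2 and 31.8 TPM to 0.350 and 0.193 TPM (-4.76 ± 0.22). The other 6 called genes, UTF1, DPPA2, DPPA4, PRDM14, VRTN and ZSCAN10, changed by between -3.19 (UTF1) and -1.22 (ZSCAN10).

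The remaining 9 tested members did not pass the rule. SOX2 was at 194 and 188 TPM in hPSC and at 289 and 297 TPM in aNE, a difference of 0.61 ± 0.11. SALL4, a zinc finger factor of pluripotent cells, was at 88.3 and 91.3 TPM in hPSC and 177 and 156 TPM in aNE (0.88 ± 0.10). LIN28A, which blocks maturation of let-7 microRNAs, was at 737 and 726 TPM and at 1342 and 1302 TPM (0.85 ± 0.08). In each of these 3 genes both aNE libraries were above both hPSC libraries. ZFP42 (REX1), often used as a marker of the pluripotent state, was at 174 and 176 TPM in hPSC and 92.7 and 95.7 TPM in aNE, with a difference of -0.89 ± 0.10. The list thus held genes more than 4 log2 units lower in aNE beside genes with higher values there.

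The 12 largest rises and 12 largest falls were taken from called genes with a symbol, at least 5 TPM in the higher group and no overlap between groups. LHX5, a LIM homeodomain factor of the anterior neural plate (GRCh38.p14, chromosome 12, 113462033 to 113471871), was at 0.0613 and 0.146 TPM in hPSC and at 258 TPM in both aNE libraries (7.88 ± 0.22, limma adjusted p = 1.39e-11). SIX3, a homeodomain factor of the forebrain and eye (chromosome 2, 44941702 to 44946071), was at 0.0310 and 0.0295 TPM and at 187 and 192 TPM (7.53 ± 0.15). FEZF1, a forebrain zinc finger repressor, was at 1.55 TPM in both hPSC libraries and at 323 and 325 TPM in aNE (7.0 ± 0.24). These forebrain factors were nearly absent from hPSC and stood in aNE at levels comparable with SOX2. SOX21, a SOXB factor of neural progenitors, was at 0.171 and 0.190 TPM and at 157 and 152 TPM (7.04 ± 0.20).

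The other large rises were not all neural factors. DLK1, a non-canonical Notch ligand, rose by 6.04 ± 0.21, and LRP2 (megalin), an endocytic receptor of the forebrain neuroepithelium, by 5.92 ± 0.15. TMEM88, a membrane protein that dampens WNT signalling, rose by 6.23 ± 0.21, from 0.253 and 1.47 TPM to 123 and 139 TPM. The ligand BMP4, the homeodomain factor DLX5 and the retinoic acid hydroxylase CYP26A1 are described with their pathways. GREB1L was listed at 0.00832 TPM and 0 in hPSC and was at 123 and 122 TPM in aNE. ANKRD1, a target of the YAP co-activator, was listed at 0 in both hPSC libraries and was at 33.8 and 41.2 TPM in aNE, so no fold is given.

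TDGF1 (CRIPTO), the NODAL co-receptor, had the largest fall of all tested genes, given with its pathway. LCK, a SRC-family kinase best known from T cells, went from 84.4 and 79.7 TPM in hPSC to 1.24 and 1.78 TPM in aNE (-5.05 ± 0.23, limma adjusted p = 1.52e-09). AK4, a mitochondrial adenylate kinase, went from 196 and 209 TPM to 6.83 and 6.39 TPM (-4.74 ± 0.17). CALB1, the calcium-binding protein calbindin, went from 165 and 171 TPM to 6.88 and 8.38 TPM (-4.30 ± 0.26). In all 3 genes the lower hPSC library was more than 10 times above the higher aNE library. The neuropeptide gene NTS, the tryptophan-degrading enzyme IDO1, the growth hormone-releasing hormone receptor GHRHR and GLB1L3 changed by between -4.93 (NTS) and -4.17 (GLB1L3). HLA-DPB2 and HLA-DPA3, pseudogene relics of class II genes, are also on this list, and reads shared with intact HLA-DP genes make both uncertain. HLA-DPB2 was at 238 and 254 TPM in hPSC and 3.32 and 1.96 TPM in aNE, whereas the intact HLA-DPB1 was at 44.3 and 45.4 TPM and at 33.2 and 36.7 TPM and was not called.

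**Figure D2:**
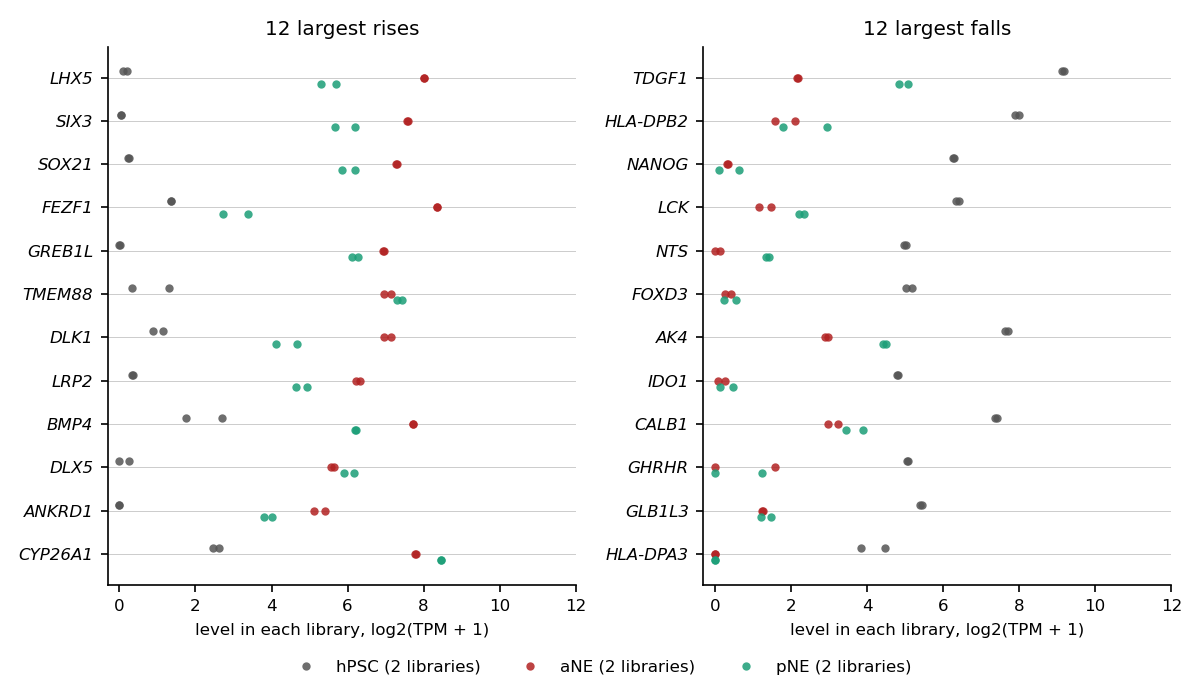
Level of the 12 largest rises (left) and the 12 largest falls (right) in each library, as log2(TPM + 1), with 2 points each for hPSC, aNE and pNE. For LHX5 and FEZF1 the pNE points lie between hPSC and aNE, and for NANOG and FOXD3 they lie with aNE.

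NODAL is a TGF-beta ligand that keeps human stem cells pluripotent through its co-receptor TDGF1, activin receptors and SMAD2 and SMAD3 with FOXH1. Of 18 genes listed, 17 were tested, 8 were called lower and 2 higher, with a median change of -0.36. Over all tested genes 7.13% were called lower and 8.38% higher. GDF3, LEFTY1 and LEFTY2 reached 1 TPM only in hPSC and CER1 only in aNE, so each could be called in 1 direction only, and was. With a filter at 5 TPM, which removed NODAL, LEFTY1, LEFTY2 and CER1 from the tested genes, 5 were called lower and 1 higher. The co-receptor TDGF1 was at 558 and 575 TPM in hPSC and at 3.47 and 3.52 TPM in aNE (-6.98 ± 0.16, limma adjusted p = 2.06e-12). TDGF1 also has close copies in the genome, which makes its level uncertain. The ligand NODAL was low throughout, at 4.02 and 2.31 TPM and at 1.07 and 0.922 TPM (-1.03 ± 0.25). Its call was lost without hPSC replicate 1 (-0.73) and without aNE replicate 2 (-0.98). GDF3, a related ligand, was at 11.7 and 9.90 TPM in hPSC and listed at 0 in both aNE libraries.

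The feedback inhibitors and DNA-binding partner of the pathway were lower as well. LEFTY1 and LEFTY2, secreted NODAL inhibitors that NODAL itself induces, were at most at 5.34 TPM in hPSC and at most at 0.0843 TPM in aNE, and both were called. The inhibitory SMAD7 went from 18.6 and 16.7 TPM to 2.52 and 1.25 TPM (-2.72 ± 0.23), and SKIL, a SMAD co-repressor and target, from 75.1 and 87.0 TPM to 6.96 and 6.79 TPM (-3.38 ± 0.18). FOXH1 went from 92.0 and 85.1 TPM to 9.28 and 10.3 TPM (-3.05 ± 0.21). Receptors and signal carriers were not called lower: ACVR1B, ACVR2A, ACVR2B, SMAD2 and SMAD4 differed by between 0.31 and 0.67, and SMAD3 was called higher, from 5.55 and 6.36 TPM to 14.1 and 13.2 TPM (1.08 ± 0.17). The call of SMAD3 was lost by a narrow margin without hPSC replicate 1 (0.997). CER1, a secreted inhibitor of NODAL, BMP and WNT, was the other call, from 0.158 and 0.304 TPM to 2.97 and 3.36 TPM. TDGF1 was lower in aNE than in pNE, where it was at 32.9 and 27.8 TPM, with a difference of -2.80 ± 0.16 (limma, adjusted p = 6.29e-08).

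The early neural plate list holds 27 transcription factors and structural genes. Of these, 22 were tested, 13 were called higher and none lower (limma, 2 lower at an unadjusted and an adjusted p under 0.05). The 13 were 59.1% of the 22, against 8.38% of all tested genes, and 7.13% of all tested genes were called lower. Since 8 of the 22 reached 1 TPM only in aNE, they could be called only as higher. PAX6, a paired-box factor of the human neural plate, was at 0.0423 and 0.0808 TPM in hPSC and at 28.9 and 29.3 TPM in aNE (4.83 ± 0.21, limma adjusted p = 1.09e-09). SOX1, another early neural marker, was at 0.0176 TPM and 0 in hPSC and at 7.73 and 6.66 TPM in aNE. SOX3, of the same SOXB family, was at 23.4 and 19.4 TPM and at 207 and 190 TPM (3.16 ± 0.19). The 3 SOXB factors other than SOX2 thus differed widely in level, with SOX1 lowest in aNE and SOX3 highest.

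ZEB2, a zinc finger repressor that antagonizes SMAD signalling, went from 0.288 and 0.646 TPM to 26.0 and 23.7 TPM (4.15 ± 0.14). MEIS2, a cofactor of homeodomain proteins, went from 0.335 and 0.0917 TPM to 26.7 and 22.8 TPM (4.41 ± 0.12). The intermediate filament gene NES was at 80.8 and 82.3 TPM in hPSC and 290 and 275 TPM in aNE (1.78 ± 0.09). The orphan nuclear receptor NR2F2 was listed at 0 in both hPSC libraries and was at 32.3 and 32.6 TPM in aNE. Its relative NR2F1 stayed under 1 TPM in all 4 libraries. ZIC factors were split: ZIC1, at 0.779 and 0.273 TPM in hPSC and 12.1 and 9.09 TPM in aNE, and ZIC4, whose call was lost without aNE replicate 2 (0.94), were called higher, while ZIC2 and ZIC5 were above 15 TPM in all 4 libraries and were not called. HES5, a Notch target of later neural progenitors, was at most at 0.144 TPM in any of the 4 libraries.

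The forebrain and eye field list holds 27 genes, of which 10 passed the filter. Of these, 9 were called higher (90.0%, against 8.38% of all tested genes) and none lower (against 7.13%). At an unadjusted and an adjusted p under 0.05, 1 was lower (limma). Of the 10, 6 reached 1 TPM only in aNE. RAX, which is required for eye formation, was at 0.0568 and 0.0811 TPM in hPSC and 26.8 and 32.2 TPM in aNE (4.83 ± 0.42, limma adjusted p = 8.11e-07). OTX2, a homeodomain factor of the forebrain and midbrain that pluripotent cells also express, was at 26.1 and 28.5 TPM and at 203 and 214 TPM (2.89 ± 0.14). HESX1, a forebrain repressor, was at 11.5 and 14.9 TPM and at 105 and 118 TPM (2.99 ± 0.24). Unlike RAX, the genes OTX2 and HESX1 were above 10 TPM in hPSC already. LHX2 and FEZF2 were under 1 TPM in hPSC and at 12.6 to 14.4 TPM in aNE, and SIX6 reached 2.16 and 2.76 TPM.

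The other 17 genes of this list stayed below the filter. NKX2-1, a factor of the ventral forebrain, was at 0 and 0.0435 TPM in aNE. EMX2, VAX1 and VAX2, which mark later forebrain or eye regions, were all under 0.6 TPM in both aNE libraries. EMX1, the only tested member that was not called, was at 3.34 and 5.54 TPM in hPSC and 1.98 and 1.72 TPM in aNE.

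Of 12 midbrain and isthmus genes, 6 passed the filter and 5 were called higher (83.3%, against 8.38% of all tested genes). Of these 5, 4 reached 1 TPM only in aNE. Under limma treat 3 were called. IRX3, an Iroquois homeodomain factor found from the midbrain backward and in the diencephalon, was at 0.964 and 1.27 TPM in hPSC and 33.3 and 32.1 TPM in aNE (4.0 ± 0.21, limma adjusted p = 5.95e-09). IRX1 was at 0.586 and 0.240 TPM and at 11.7 and 10.8 TPM. LMX1A, a roof plate and ventral midbrain factor, was listed at 0 in hPSC and was at 4.41 and 4.80 TPM in aNE. Genes of the midbrain-hindbrain boundary differed in level. FGF8, the ligand of the isthmus, was at 4.69 and 3.63 TPM in aNE, PAX2, a paired-box factor, was listed at 0 in hPSC and was at 1.04 and 1.36 TPM in aNE, and both were called, PAX2 not with quantile normalization (0.77). LMX1B, at 3.68 and 2.80 TPM in aNE, was not called. EN1 was listed at 0 in all 4 libraries, and EN2, PAX5, PAX8 and WNT1 were at most at 0.343 TPM.

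Of 22 hindbrain and trunk factors, 18 stayed below the filter. The 12 HOX genes listed, which mark hindbrain and spinal cord, were at most at 0.319 TPM in either aNE library. The tested genes included GBX2, a hindbrain factor, CDX4 and NKX1-2. NKX1-2, a factor of caudal progenitors, was at 28.8 and 30.4 TPM in hPSC and 1.55 and 1.23 TPM in aNE (-3.68 ± 0.20, limma adjusted p = 7.74e-09). CDX4, under 3 TPM in hPSC, was called lower too. Of the 4 tested genes 2, CDX4 among them, reached 1 TPM only in hPSC and could be called only as lower. GBX2 was at 2.75 and 2.81 TPM in hPSC, 1.04 and 1.05 TPM in aNE, and 172 and 216 TPM in pNE, and the difference between aNE and pNE was -6.56 ± 0.20 (limma, adjusted p = 1.54e-10).

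**Figure D3:**
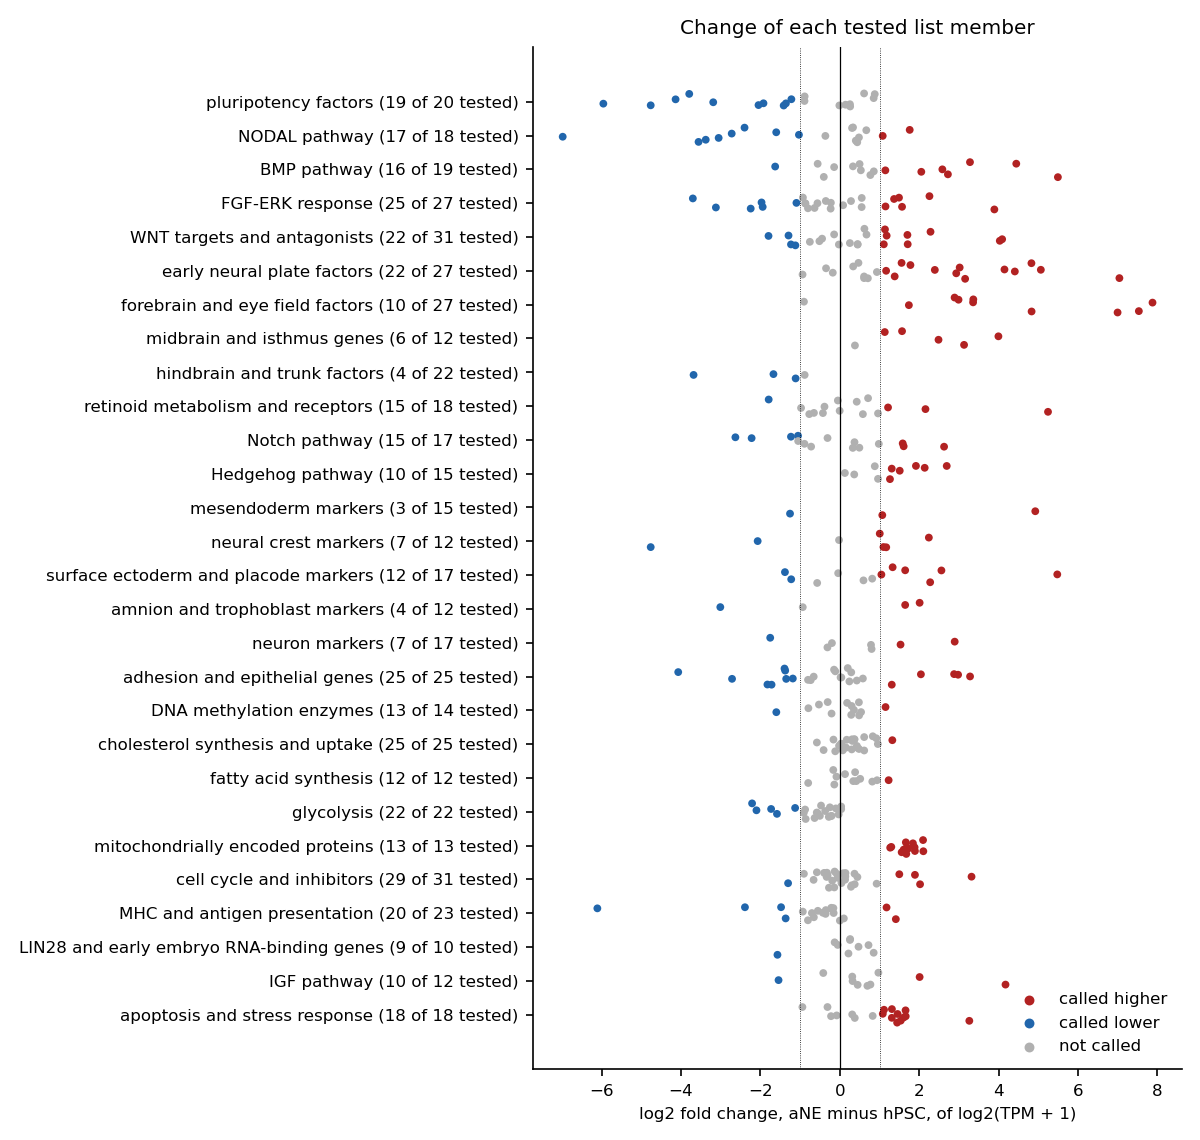
Log2 fold change (aNE minus hPSC, on log2(TPM + 1)) of each tested member of 28 gene lists, 1 point per gene, red where called higher, blue where called lower and gray where not called, with dotted lines at the fold threshold of 1. The 13 mitochondrially encoded genes all lie to the right, while most cholesterol synthesis and cell cycle genes lie within the thresholds.

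Bone morphogenetic proteins (BMP) oppose neural fate and signal through SMAD1 and SMAD5 to induce ID genes. Of 19 genes listed, 16 were tested, 7 were called higher (43.8%, against 8.38% of all tested genes) and 1 lower (6.25%, against 7.13%). The ligand BMP4 was at 2.38 and 5.46 TPM in hPSC and at 209 and 210.3 TPM in aNE (5.49 ± 0.20, limma adjusted p = 1.81e-10). The ligand BMP7 was at 3.37 and 2.40 TPM and at 82.7 and 83.3 TPM (4.44 ± 0.17), and BMP2 at 1.52 and 1.89 TPM and at 16.1 and 14.3 TPM (2.58 ± 0.12). All 3 ligands were higher in aNE, in a medium that held a BMP receptor inhibitor. FST, a secreted protein that binds activin and BMPs, was at 9.38 and 9.89 TPM and at 99.6 and 105 TPM (3.28 ± 0.14). The antagonists NOG and CHRD were under 2 TPM in all 4 libraries.

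The targets of the pathway did not move as 1 group. ID1 was at 153 and 142 TPM in hPSC and 131 and 135 TPM in aNE (-0.14 ± 0.18), and ID3 at 369 and 366 TPM and at 450 and 476 TPM (0.33 ± 0.09). Neither was called. ID4, which in neural tissue marks progenitors, was called higher, from 1.99 and 1.72 TPM to 18.2 and 17.5 TPM, and BAMBI, a decoy receptor, was called lower, from 17.2 and 21.1 TPM to 5.84 and 5.14 TPM (-1.63 ± 0.13). SMAD6 and MSX2 were called higher at levels under 7 TPM, and MSX2 reached 1 TPM only in aNE, so it could be called only as higher. Against pNE, which shared the BMP receptor inhibitor, ID1 was higher in aNE by 2.83 ± 0.18 (15.0 and 21.3 TPM in pNE), ID2 by 2.46 ± 0.17, FST by 1.92 ± 0.14 and BMP4 by 1.51 ± 0.20. These 4 genes were among 248 called higher in aNE than in pNE, 1.67% of the tested genes, whereas 334 (2.25%) were called lower.

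Fibroblast growth factors (FGF) act through FGF receptors and the kinase ERK, which induces its own inhibitors of the DUSP, SPRY and SPRED families and the ETV factors. MEK, above ERK, was blocked by trametinib on day 1 but not on day 2. Of 27 genes listed, 25 were tested, 6 were called higher and 6 lower, and the median change was -0.35. Each count was 24.0% of those tested, against 8.38% higher and 7.13% lower over all tested genes. The receptors were higher: FGFR3 went from 8.98 and 13.5 TPM to 179 and 176 TPM (3.89 ± 0.18, limma adjusted p = 1.56e-09), FGFR1 from 248 and 261 TPM to 739 and 696 TPM (1.49 ± 0.09), and FGFR2 by 1.37 ± 0.13. The ligand FGF8 was called at low levels, 0.631 and 0.839 TPM in hPSC and 4.69 and 3.63 TPM in aNE. The called receptor genes were thus all higher in aNE.

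ETV4 was at 157 and 164 TPM in hPSC and 10.7 and 12.2 TPM in aNE (-3.70 ± 0.10, limma adjusted p = 1.37e-11). SPRY4 was at 53.1 and 61.4 TPM and at 6.40 and 5.03 TPM (-3.12 ± 0.10), and the phosphatase DUSP6 at 149 and 156 TPM and at 29.3 and 33.6 TPM (-2.24 ± 0.08). ETV5, IL17RD and FOS were the other calls below hPSC, with changes of -1.94, -1.97 and -1.09, the last not called without hPSC replicate 1 (-0.92). The immediate early gene EGR1 went the other way, from 2.35 and 2.56 TPM to 15.7 and 15.3 TPM (2.26 ± 0.17), and FOSL1 rose by 1.15 ± 0.15. In the test of aNE against pNE, whose medium held FGF2, 13 of the 25 genes were called lower in aNE and 2 higher. Over all tested genes 2.25% were called lower in that test and 1.67% higher. DUSP6 was at 274 and 238 TPM in pNE, a difference of -2.98 ± 0.08, and SPRY4 at 77.5 and 86.0 TPM, a difference of -3.63 ± 0.10. EGR1 and FGF8 were the 2 genes higher in aNE. Under limma treat 3 genes of the list were called higher than in hPSC and 5 lower.

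**Figure D4:**
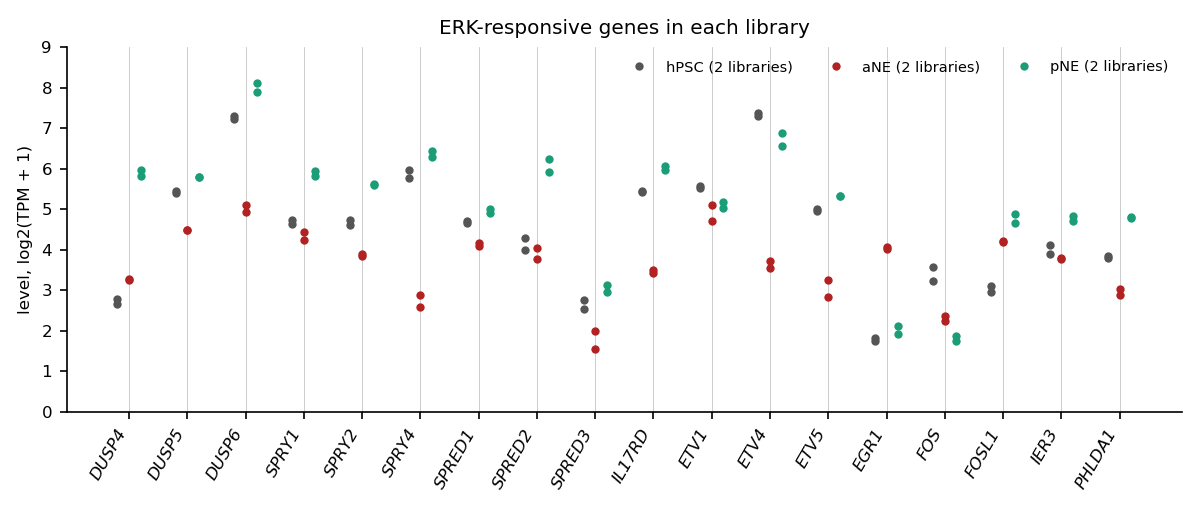
Level of 18 ERK-responsive genes of the list in each library, as log2(TPM + 1), with 2 points each for hPSC, aNE and pNE. For DUSP6, SPRY4, IL17RD and ETV5 both aNE points lie below all hPSC and pNE points, and for EGR1 both lie above them.

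WNT proteins bind Frizzled receptors and stabilize beta-catenin, and their inhibition favours anterior neural fate. Of 31 genes listed, 22 were tested, 8 were called higher (36.4%, against 8.38% of all tested genes) and 4 lower (18.2%, against 7.13%). AXIN2, a feedback inhibitor and common readout, was at 23.4 and 22.5 TPM in hPSC and 6.27 and 5.55 TPM in aNE (-1.80 ± 0.10, limma adjusted p = 7.74e-09). NKD2, WIF1 and SFRP2 were called lower too, NKD2 not without aNE replicate 2 (-0.99). The readouts were not uniform, since LEF1 (1.22 and 0.594 TPM, then 4.14 and 6.31 TPM) and SP5 (under 0.4 TPM, then 1.44 and 2.08 TPM) were called higher at low levels. SP5 was not called when any 1 of the 4 libraries was left out, with changes from 0.94 to 1.28. The Frizzled gene FZD5, which acts in eye development, rose from 10.5 and 10.8 TPM to 189 and 190 TPM (4.03 ± 0.14), and FZD2, FZD7 and FZD8 rose by between 1.18 and 2.29. FRZB, a secreted WNT antagonist, rose from 2.49 and 2.68 TPM to 57.7 and 62.4 TPM (4.09 ± 0.13). FZD5 and FRZB were the members called higher in aNE than in pNE, by 3.24 ± 0.14 and 1.59 ± 0.13, and TCF7 was called lower. Under limma treat 5 genes were called higher and 1 lower against hPSC.

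Retinoic acid is made from retinol by RDH10 and ALDH1A enzymes, carried by CRABP proteins and broken down by CYP26 enzymes. Of 18 genes listed, 15 were tested, 3 were called higher (20.0%, against 8.38% of all tested genes) and 1 lower (6.67%, against 7.13%). CYP26A1 was at 4.56 and 5.16 TPM in hPSC and at 219 and 223 TPM in aNE (5.24 ± 0.18, limma adjusted p = 8.24e-11), although no retinoid agonist was named for the aNE medium. In pNE, which received TTNPB, it was at 352 and 348 TPM, and the difference of -0.66 ± 0.18 between aNE and pNE was not called. CRABP2 rose from 133 and 112 TPM to 555 and 540 TPM (2.16 ± 0.09), while its relative CRABP1 fell from 592 and 574 TPM to 159 and 177 TPM (-1.79 ± 0.06). The reductase DHRS3 rose by 1.21 ± 0.13. The ALDH1A genes were under 3 TPM in all 4 libraries. The receptor RARB was at 1.28 and 1.08 TPM in aNE and 21.4 and 20.0 TPM in pNE. It was 1 of 6 genes of the list called lower in aNE than in pNE, with none higher. At an unadjusted p under 0.05, 2 were higher, 1 of them at an adjusted p under 0.05 (limma). Of all tested genes, 2.25% were called lower in aNE than in pNE and 1.67% higher.

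Notch receptors are activated by ligands on neighbouring cells and induce HES and HEY genes, which hold progenitors undifferentiated. Of 17 genes listed, 15 were tested, 3 were called higher and 4 lower, or 3 and 2 under limma treat. The first counts were 20.0% and 26.7% of those tested, against 8.38% and 7.13% of all tested genes. Since 2 of the 15 reached 1 TPM only in hPSC, they could be called only as lower. The ligand DLL1 rose from 2.97 and 0.451 TPM to 13.2 and 14.4 TPM (2.63 ± 0.35, limma adjusted p = 4.38e-05), NOTCH2 from 18 and 20.4 TPM to 61.7 and 59.2 TPM, and HES1 from 12.5 and 12.1 TPM to 38.4 and 39.5 TPM. DLL3, HEY1, HEY2 and NRARP fell, DLL3 from 10.8 and 10.4 TPM to 1.38 and 1.60 TPM. The targets of the pathway were therefore called in both directions. HEY1, at most at 1.95 TPM, was not called without hPSC replicate 2 (-0.93).

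Hedgehog proteins bind PTCH1, with BOC, CDON and GAS1 as co-receptors, and act through SMO and GLI factors. Of 15 genes listed, 10 were tested, 6 were called higher and none lower (limma, 0 lower at an unadjusted p under 0.05), with a median change of 1.29. The co-receptor GAS1 went from 3.95 and 3.88 TPM to 22.3 and 19.1 TPM (2.14 ± 0.14, limma adjusted p = 4.55e-08), and BOC and CDON rose by 1.31 and 1.51. GLI3, mainly a repressor, rose from 9.82 and 9.62 TPM to 41.1 and 37.9 TPM (1.92 ± 0.14), PTCH1 by 1.26 and the decoy receptor HHIP by 2.69. GLI1, the usual readout of active signalling, was at 7.98 and 13.3 TPM in hPSC and 12.8 and 10.1 TPM in aNE, with overlapping groups. The ligands SHH, IHH and DHH were under 0.1 TPM in all 4 libraries. None of the 10 genes was called between aNE and pNE, although 6 were higher and 0 lower in aNE at an adjusted p under 0.05 (limma). At an unadjusted p under 0.05, 7 of the 10 were higher and 1 lower (limma). By adjusted p alone, 2287 of the 14841 tested genes were called between aNE and pNE, in either direction (limma).

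Lists for other cell types held calls in both directions, many of them at low levels. Over all tested genes 8.38% were called higher and 7.13% lower. Of 15 mesendoderm markers 12 stayed below the filter, and of the 3 tested 2 were called higher and 1 lower, or 1 and 0 under limma treat. None of the 3 reached 1 TPM in both groups, so each could be called in 1 direction only. TBXT, EOMES, MIXL1, SOX17 and GATA6 together were at 1.02 and 1.33 TPM in hPSC and 0.727 and 0.940 TPM in aNE. GSC, a homeodomain factor of the organizer and anterior mesendoderm, was listed at 0 in hPSC and was at 30.4 and 28.4 TPM in aNE. The chemokine receptor CXCR4 was called higher, from 0.651 and 0.830 TPM to 2.40 and 2.92 TPM, but not without aNE replicate 2 (0.97) or hPSC replicate 1 (0.996), and TBX6, a T-box factor of paraxial mesoderm, was called lower, from 2.46 and 3.52 TPM to 0.398 and 0.969 TPM. Against pNE, where GSC was at 4.84 and 4.33 TPM, GSC was higher in aNE by 2.44 ± 0.23 (limma, adjusted p = 7.80e-06). Whether a few cells of another type hold the GSC transcripts was not tested.

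Of 17 surface ectoderm and placode markers, 12 were tested, 6 were called higher and 2 lower, or 3 and 0 under limma treat. The first counts were 50.0% and 16.7% of the 12, against 8.38% and 7.13% over all tested genes. Since 4 of the 12 reached 1 TPM only in aNE, they could be called only as higher. DLX5 was at 0 and 0.185 TPM in hPSC and at 48.5 and 46.5 TPM in aNE (5.48 ± 0.15, limma adjusted p = 1.37e-11). Its neighbour DLX6 was listed at 0 in hPSC and was at 4.78 and 5.01 TPM in aNE. The markers TFAP2A, GATA3, TP63 and DLX5 summed to 1.71 and 0.402 TPM in hPSC and 51.4 and 49.5 TPM in aNE, but DLX5 made up nearly all of it, and TFAP2A and TP63 were under 0.6 TPM in aNE. The keratin gene KRT18 was above 270 TPM in all 4 libraries and was not called. The calls below hPSC were KRT7 and GRHL2, and GRHL2 (16.4 and 15.4 TPM, then 6.80 and 5.70 TPM) was not called when any 1 library was left out, with changes from -1.33 to -1.11.

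Of 12 neural crest markers, 7 were tested, 4 were called higher (57.1%) and 2 lower (28.6%), or 1 and 2 under limma treat. Over all tested genes 8.38% were called higher and 7.13% lower. Of the 7, 1 reached 1 TPM only in aNE and 1, FOXD3, only in hPSC, so each could be called in 1 direction only. NGFR, a neurotrophin receptor, rose from 11.1 and 9.87 TPM to 52.8 and 53.6 TPM (2.24 ± 0.11, limma adjusted p = 2.79e-09), and SOX9, SNAI2 and TWIST1 rose to at most 15.0 TPM. SNAI2 (1.01 ± 0.18) was not called without aNE replicate 2 (0.81) or hPSC replicate 2 (0.75), nor TWIST1 (1.17 ± 0.24) without aNE replicate 2 (0.90) or hPSC replicate 1 (0.999). The crest markers that fell were FOXD3 and ETS1, while TFAP2B, PAX3 and PAX7 stayed under 1 TPM and SOX10 was at 2.44 to 3.36 TPM in all 4 libraries. Of 12 amnion and trophoblast markers, 4 were tested, 2 were called higher and 1 lower, or 1 and 1 under limma treat. GABRP, a GABA receptor subunit, was at 453 and 533 TPM in hPSC and 65.3 and 55.3 TPM in aNE (-3.01 ± 0.21). IGFBP3 went from 3.97 and 4.44 TPM to 20.3 and 19.6 TPM, and GATA3, which reached 1 TPM only in aNE, to 2.35 and 2.48 TPM. CDX2, ISL1 and VTCN1, further amnion markers, were under 0.4 TPM in all 4 libraries. Of 17 neuron markers, 7 were tested, 2 were called higher (28.6%) and 1 lower (14.3%), with a median change of 0.79. The whole list summed to 257.7 and 249.2 TPM in hPSC and 476 and 491 TPM in aNE, most of it from the tubulin gene TUBB3 (233 and 219.7 TPM, then 383 and 398 TPM), which was not called. NEUROG1, NEUROG2 and NEUROD1 were under 0.3 TPM in all 4 libraries, and the 4 markers STMN2, DCX, NEUROD1 and ELAVL3 summed to 3.24 and 5.42 TPM in hPSC and 4.67 and 4.50 TPM in aNE. The cytoskeletal genes MAP2 and INA, which neural progenitors also express, rose by 2.89 ± 0.14 and 1.53 ± 0.11. ONECUT1, a homeodomain factor, was called lower, from 2.79 and 4.54 TPM to 0.519 and 0.217 TPM, but not under limma treat. It reached 1 TPM only in hPSC, so it could be called only as lower.

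Cadherins hold epithelial cells together, and neural plate cells are known to exchange E-cadherin (CDH1) for N-cadherin (CDH2). Of 25 adhesion and epithelial genes, all tested, 5 were called higher and 8 lower, or 4 and 4 under limma treat. The calls were 20.0% higher and 32.0% lower, against 8.38% and 7.13% over all tested genes. CDH2 rose from 19.6 and 18 TPM to 150 and 139 TPM (2.88 ± 0.10, limma adjusted p = 8.24e-11). CDH1 fell from 133 and 138 TPM to 55.6 and 49.8 TPM (-1.35 ± 0.23), and P-cadherin (CDH3) from 136 and 130 TPM to 56.4 and 59.5 TPM (-1.18 ± 0.14). Thus CDH2 exceeded CDH1 in both aNE libraries, whereas the order was the reverse in both hPSC libraries. VIM, an intermediate filament of neuroepithelium and mesenchyme, rose from 51.6 and 50.7 TPM to 432 and 390 TPM (2.98 ± 0.09), and CDH6, CDH11 and NCAM1 rose by between 1.31 and 3.28. The surface proteins CD9 (-4.07 ± 0.19), L1CAM (-2.71 ± 0.25) and THY1 (-1.82 ± 0.11), the junction genes CLDN7 and CRB3 and the splicing factor ESRP1 fell. EPCAM, CLDN6, TJP1 and OCLN, also epithelial genes, were not called.

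Stem cells rely largely on glycolysis, and mitochondrial respiration depends on 13 proteins encoded in mitochondrial DNA. All 13 were called higher in aNE, against 8.38% of all tested genes, by between 1.27 and 2.10, with a median of 1.69. MT-ND1 was at 254 and 362 TPM in hPSC and at 1254 and 1346 TPM in aNE (2.10 ± 0.18, limma adjusted p = 6.21e-07). MT-CO1 was at 1319 and 1772 TPM and at 4640 and 5135 TPM (1.67 ± 0.17). No hPSC library reached an aNE library for any of the 13 genes, but groups did not overlap for 77.0% of all tested genes. The 13 all count toward the mitochondrial share of a library, so they are not 13 separate observations. The same genes gave no call between aNE and pNE (limma, 0 at an unadjusted p under 0.05), where differences lay between -0.33 and 0.12. Poly-T selection and RNA quality also set the mitochondrial share of a library, given above by library, and their part in this result was not tested.

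Glycolysis genes lay on the other side. Of 22 genes, all tested, 5 were called lower (22.7%, against 7.13% of all tested genes), with a median of -0.53. None was called higher (limma, 0 higher at an unadjusted p under 0.05). At an adjusted p under 0.05 alone, 18 of the 22 were lower in aNE (limma), against 21.9% of all tested genes. Under limma treat 3 were called. LDHA, which makes lactate, fell from 429 and 352 TPM to 126 and 133 TPM (-1.58 ± 0.12, limma adjusted p = 2.29e-07). The glucose transporter SLC2A1 fell from 540 and 479 TPM to 241 and 224 TPM (-1.13 ± 0.11), ALDOC from 57.1 and 59.2 TPM to 11.5 and 12.1 TPM (-2.21 ± 0.15), and PDK1, which keeps pyruvate out of mitochondria, fell by 1.73 ± 0.20. The lactate exporter SLC16A3 was also called, but its hPSC libraries differed, at 32.6 and 11.0 TPM. The most abundant enzyme, GAPDH, was at 6364 and 6409 TPM and at 5615 and 5463 TPM (-0.21 ± 0.06). SLC2A1 was the list's only call against pNE, where it was at 533 and 589.6 TPM.

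Stressed cells arrest or die through a set of stress response and cell death genes. Of 18 apoptosis and stress response genes, all tested, 11 were called higher (61.1%, against 8.38% of all tested genes) and none lower (against 7.13%). The median change of the 18 was 1.21. At an unadjusted and an adjusted p under 0.05, 2 were lower (limma). Under limma treat 7 were called. BTG2, an antiproliferative gene, rose from 2.71 and 2.78 TPM to 34.1 and 35.8 TPM (3.26 ± 0.08, limma adjusted p = 3.82e-12). MDM2, a ubiquitin ligase of the stress response, rose from 18.9 and 23.8 TPM to 48.3 and 44.0 TPM (1.08 ± 0.18) but was not called without hPSC replicate 1 (0.92) or with median-ratio scaling (0.993). The death receptor FAS rose from 3.32 and 2.77 TPM to 11.1 and 12.4 TPM (1.66 ± 0.18). The pro-death genes BBC3 (PUMA) and BCL2L11 (BIM) rose by 1.53 and 1.31, and so did the pro-survival BCL2L1, by 1.31 ± 0.08. PMAIP1 (NOXA), another pro-death gene, was at 72.9 and 73.2 TPM in hPSC and 37.7 and 37.4 TPM in aNE (-0.94 ± 0.17) and was not called. In pNE, whose cells were replated in the same way, 10 of the 18 were called higher than in the same hPSC libraries and 1 lower, where 7.42% of all tested genes were called higher and 6.58% lower.

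**Figure D5:**
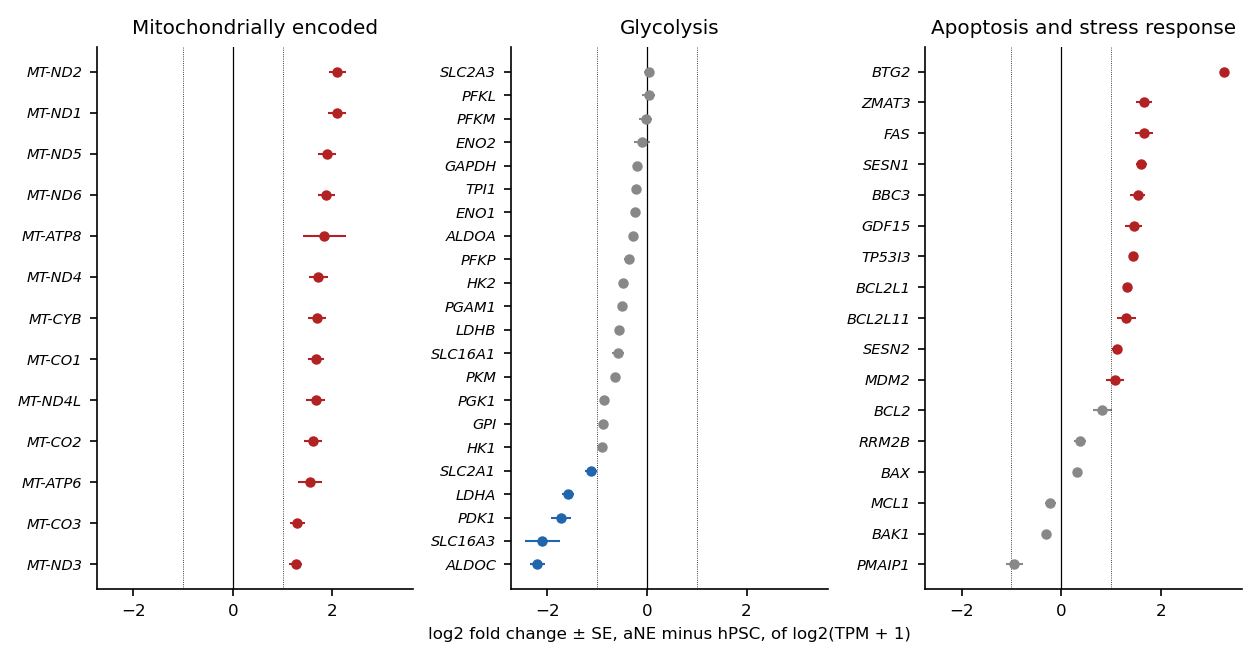
Log2 fold change with SE (aNE minus hPSC, on log2(TPM + 1), 2 libraries per group) of the 13 mitochondrially encoded, 22 glycolysis and 17 of the 18 apoptosis and stress response genes, red where called higher, blue where called lower, gray where not called, with dotted lines at the fold threshold of 1. The 13 genes of the first panel lie to the right of the threshold, and the 5 called genes of the second panel, ALDOC, SLC16A3, PDK1, LDHA and SLC2A1, lie to the left of it.

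Of 31 cell cycle genes and inhibitors, 29 were tested, and their median change was 0.04. Of these, 4 were called higher (13.8%, against 8.38% of all tested genes) and 1 lower (3.45%, against 7.13%). CDKN1A (p21) rose from 11.0 and 10.3 TPM to 117 and 113 TPM (3.32 ± 0.07, limma adjusted p = 8.36e-13). CDKN1C (p57) rose from 12.4 and 8.81 TPM to 44.8 and 38.6 TPM (1.89 ± 0.14) and was also higher than in pNE, by 2.37 ± 0.14. The inhibitor CDKN2A and the kinase CDK6 rose at levels of at most 3.81 and 16.4 TPM. CCNE1, the cyclin E of the entry into DNA replication, fell from 56.5 and 56.2 TPM to 22.8 and 21.7 TPM (-1.30 ± 0.11). The proliferation markers MKI67 (33.8 and 35.6 TPM, then 40.8 and 36.0 TPM), PCNA and MCM2 were not called and differed by at most 0.14 in either direction.

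Of 14 DNA methylation genes, 13 were tested, 1 was called higher and 1 lower. Each was 7.69% of those tested, near the 8.38% higher and 7.13% lower over all tested genes. DNMT3B, a DNA methyltransferase abundant in human stem cells, fell from 1265 and 1292 TPM to 413 and 429 TPM (-1.60 ± 0.08, limma adjusted p = 5.06e-09), while the maintenance enzyme DNMT1 was at 115 TPM in both hPSC libraries and at 131 and 151 TPM in aNE. TET2, which oxidizes methylated cytosine, was the call above hPSC, at 2.85 and 2.67 TPM in aNE. Of 25 cholesterol genes, all tested, SREBF1 alone was called (1.32 ± 0.13), though not under limma treat. The fold threshold set this count, since by adjusted p alone 14 of the 25 were higher and 2 lower (limma), against 26.0% and 21.9% of all tested genes. The sterol response element TCACCCCAC was in 1 of the 19 promoters of that list that the table holds, SREBF2, against 0.425% of all promoters.

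Of 12 IGF genes, 10 were tested, 2 were called higher and 1 lower. IGFBP5, which binds insulin-like growth factors, rose from 0.658 and 0.252 TPM to 27.1 and 23.1 TPM (4.17 ± 0.14, limma adjusted p = 6.84e-11), IGFBP3 rose by 2.01 ± 0.11, and IGFBP4 fell from 155 and 145 TPM to 50.0 and 51.6 TPM (-1.54 ± 0.09). Of 23 antigen presentation genes, 20 were tested, 4 were called lower and 2 higher, or 3 and 0 under limma treat. CD74, the class II invariant chain, fell from 41.4 and 36.0 TPM to 13.4 and 13.0 TPM (-1.48 ± 0.14), and the peptide transporter gene TAP1 rose by 1.18 ± 0.16. HLA-B was not called. In the list of LIN28 and other early embryo RNA-binding genes, DPPA3 alone was called, at 1.19 and 3.27 TPM in hPSC and 0.0604 TPM and 0 in aNE. DPPA3 reached 1 TPM only in hPSC, so it could be called only as lower. This call was 11.1% of the 9 tested, against 7.13% called lower over all tested genes.

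The test of aNE against pNE shows where the change from hPSC differed between the anterior and posterior media, since the shared hPSC libraries drop out of it. Of the 14841 genes, 582 were called (3.92%). Genes present in pNE alone are not among those tested, because the filter used aNE and hPSC. The genes that rose from hPSC and were furthest above pNE were FEZF1 (5.28 ± 0.24, limma adjusted p = 6.35e-09), RAX (4.77 ± 0.42), NPTX1, HES3, SMOC1 and NR2F2. SMOC1, a matrix protein that modulates BMP signals in the eye field, was at 0.933 and 1.10 TPM in hPSC, 31.4 and 33.2 TPM in aNE and 1.48 and 1.85 TPM in pNE. HES3, a HES repressor of neuroepithelium, was at 66.9 and 65.5 TPM, 196 and 176 TPM, and 7.30 and 8.23 TPM in the same order. For HES3 the hPSC level thus lay between the 2 neural groups.

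The genes that fell from hPSC and were furthest below pNE were CHGA, DACT1, SPRY4, LRAT, ALKAL2 and ETV4. CHGA, the secretory granule protein chromogranin A, was at 94.0 and 104 TPM in hPSC, 15.6 and 15.0 TPM in aNE and 258 and 323 TPM in pNE (aNE minus pNE -4.15 ± 0.13, limma adjusted p = 1.83e-10). DACT1, which modulates WNT signalling, was at 10.2 and 12 TPM, 3.06 and 2.79 TPM, and 54.5 and 65.6 TPM (-3.95 ± 0.14). LRAT, which stores retinol as esters, was at 9.03 and 11.1 TPM, 1.35 and 2.26 TPM, and 34.5 and 31.4 TPM (-3.62 ± 0.18). In these 3 genes hPSC lay between a lower aNE and a higher pNE. Of the 6 genes, SPRY4 and ETV4 belong to the ERK-responsive genes above.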

How the data were processed

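RNA was sequenced from 18 libraries, 2 in each of 9 groups, and the authors deposited a table of TPM values per gene over all of them. The submitters' processing notes name bcl2fastq, FastQC, Trim Galore, kallisto and deepTools and the build hg38. Versions, the annotation and the strand setting are not given in the sources used here. From the deposited TPM values, log2(TPM + 1) was computed, and a gene was tested where 2 or more of the 4 aNE and hPSC libraries held 1 TPM or more. Counts were not used here, so no count test was run.

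One mean per group was fitted over all 18 libraries with limma 3.58.1 in R 4.3.3 (lmFit, then eBayes with trend), which left 9 residual degrees of freedom, and p-values were adjusted by Benjamini-Hochberg over the 14841 tested genes. The SE is that of limma. The fit was tested on simulated data with known changes. Groups follow the labels' sample names. No label says that replicates came from separate cultures, so the p-values measure only the spread between these libraries, which may be technical.

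Described genes are members of 28 lists, the 12 largest rises and 12 largest falls under the limits given above, and the 6 genes each way that also differed furthest from pNE. The members and lists were chosen with earlier results of these data known. Genes named for opposite changes in aNE and pNE, and those called chosen after their values were seen, stand outside this rule. Of the 29652 rows with a gene symbol, 99.9% matched the reference names, and the 7898 rows without a symbol were tested where they passed the filter but are not named. Promoter sequences and the positions of LHX5 and SIX3 come from RefSeq (GRCh38.p14). The alternatives were another pseudocount (0.1), 3 other filters on low values, 2 other scalings, a fit on only the 4 libraries compared, a replicate block, 2 other call rules and leaving out each library. Some genes of the lists are counted but are not reported here by name.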

Additional observations from a re-analysis of the deposited data

Results flagged for a closer look

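For 11 genes described here the change from hPSC was called in opposite directions in aNE and pNE, and the difference between aNE and pNE was called as well (limma, Benjamini-Hochberg). Both changes use the same hPSC libraries, which drop out of the difference given here. In 9 of them aNE lay below hPSC and pNE above it. The secreted or vesicle proteins among these were CHGA (aNE minus pNE -4.15), ADM, the vasodilator peptide adrenomedullin (-2.99), SCUBE1 (-2.72), the coagulation inhibitor TFPI (-2.49) and ALKAL2, a ligand of the receptor ALK (-3.30). The others were DACT1 (-3.95), LRAT (-3.62), the glutamate receptor subunit GRIA3 (-2.57) and TPD52L1 (-2.16).

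ADM was at 94.5 and 92.3 TPM in hPSC, 28.2 and 33.9 TPM in aNE and 246 and 259 TPM in pNE. TFPI was at 36.7 and 46.5 TPM, 14.1 and 16.3 TPM, and 86.5 and 93.0 TPM in the same order. The 3 groups did not overlap for ADM and TFPI. The call of TPD52L1 between aNE and hPSC was lost without aNE replicate 1 (-0.78) or hPSC replicate 2 (-0.99).

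The opposite pattern, aNE above hPSC and pNE below it, was held by HES3 (aNE minus pNE 4.41) and NPTX1 (4.45), a secreted pentraxin of synapses. NPTX1 was at 7.69 and 2.13 TPM in hPSC, 38.5 and 33.0 TPM in aNE and 0.546 and 0.809 TPM in pNE.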

How the results depend on the processing

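Without any fold threshold 7104 genes were called between aNE and hPSC (3852 higher, 3252 lower), and limma treat called 797 (457 higher, 340 lower), with 57.3% of calls higher. Between aNE and pNE these rules called 2287 and 163. Higher calls fell to 47.7% with median-ratio scaling and 47.0% with quantile normalization, and median-ratio scaling moved the median of all genes from 0.06 to -0.02. The count for aNE against hPSC stayed within 1.5 times 2301 under every other alternative run, from 1662 (filter at 5 TPM) to 2751 (pseudocount 0.1), and between 2231 and 2279 without any 1 library. The higher calls ranged from 1179 to 1263 and the lower calls from 1016 to 1052 when 1 library was left out. The count for aNE against pNE ranged from 570 to 648 in the same way. Of the 177 named genes called against hPSC, median-ratio scaling ended the call of 3, quantile normalization of 3, a pseudocount of 0.1 of 4, and leaving out 1 library of between 3 and 8. The uncalled gene GLI1 changed sign. It went from 0.13 to -0.03 without aNE replicate 1, -0.21 without hPSC replicate 1 and 0.47 without hPSC replicate 2, and the cause was not tested. Replicate numbers do not pair the samples: the deviations of same-numbered aNE and hPSC libraries from their group means correlated at -0.033 across genes, and the replicate block called 2302 and 586 genes. With 2 libraries a group and TPM values, the noise of low genes cannot be set against their depth.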

Other observations

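Of 12 fatty acid synthesis genes, all tested, only SCD5, a desaturase, was called between aNE and hPSC (1.23 ± 0.18, limma adjusted p = 8.29e-05), at levels under 5 TPM in all 4 libraries. This call was 8.33% of the list, near the 8.38% called higher over all tested genes. FASN, which builds palmitate, was at 404 and 435 TPM in hPSC and 835 and 774 TPM in aNE (0.94 ± 0.21), and the desaturase FADS1 was at 83.8 and 114 TPM and at 182 and 165 TPM (0.82 ± 0.13). ELOVL6, which lengthens fatty acids, lay on the other side, at 75.5 and 90.4 TPM in hPSC and 46.8 and 47.4 TPM in aNE (-0.80 ± 0.18). The list's median change was 0.36, against 0.06 over all tested genes. HMGA2, a chromatin protein of early embryonic cells, was at 113 and 122 TPM in hPSC and 199 and 190.4 TPM in aNE (0.72 ± 0.07) and was not called.

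HES3 and NPTX1 were chosen after their values were seen. HES3, at 196 and 176 TPM in aNE on day 2, was at 0.778 and 0.375 TPM in the day-4 libraries labelled aNE_T, whose cells had passed through the aNE medium to a forebrain medium. NPTX1, at 38.5 and 33.0 TPM on day 2, was at 0.611 and 0.427 TPM in aNE_T. Both genes were thus far lower again in those day-4 libraries, while SIX3 was at 414 and 379.5 TPM there.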
